A study of Rattus norvegicus with 15 samples.

Results

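The genes described here encode the machinery of motile cilia in rat lung. They are the rows whose symbol begins with Dnah, Dnai, Cfap, Tekt, Rsph, Drc or Spag, together with Ccdc39, Ccdc40, Hydin, Tppp3, Pifo and Mcidas. Foxj1 was not analysed here. The rule found 73 rows of 22250 genes, and 59 of them passed a filter of at least 1 FPKM in at least 5 of the 15 libraries. FPKM are fragment numbers scaled for the length of a gene and for the size of its library. The COPD group held 5 lung libraries from rats given LPS/Smoke by tracheal administration, to model chronic obstructive pulmonary disease. LPS is lipopolysaccharide, a bacterial cell wall component. The WDD group held 5 libraries from rats given the same exposure and, by the intragastric route, Wendan Decoction, a traditional Chinese herbal formula. The control group held 5 libraries from normal rats. All rats were wild type, and the sources used here give no strain, age or sex. Whether the 5 libraries of a group are 5 rats is not stated, and the p-values cover the spread among these libraries, which may be technical.

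Motile cilia cover the multiciliated cells of the airway and carry mucus out of the lung. Their core, the axoneme, is a ring of microtubule doublets around a central pair. Dynein arms on the doublets produce the force for the beat. The heavy chains, named Dnah, are the motors of these arms and are among the largest proteins of the cell. Intermediate chains anchor the outer arms. Radial spokes, the central pair and the nexin-dynein regulatory complex control the arms, tektins and other inner proteins line the doublets, and cytoplasmic factors pre-assemble the arms. Whole lung holds few multiciliated cells, and in bulk tissue fewer cells of a type and less RNA per cell cannot be told apart.

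RFX factors and Foxj1 are the transcription factors known to act on ciliary genes, and RFX factors bind the X-box. Upstream sequences were therefore read for the members, as the 250 bases before the RefSeq start on build GRCr8, for 49 of the 59 rows, among which both Spag5 rows share a window. The X-box half-site GTTGCC stood on either strand in 12 of these 49 (24.5%), against 9.90% of 27457 promoters. It was found in 1 of 7 Dnah promoters and in 5 of 15 promoters of short members. The full X-box inverted repeat, which can overlap the half-site, stood in 1 of 49 (2.04%), against 0.353% of all promoters. The forkhead motif GTAAACA stood in 2 of 49 (4.08%), against 3.25%. Shown are 4 members that the results below turn on. Capitals mark the half-site, here read on the opposite strand as its reverse complement, and the Dnah9 window holds none of the 3 motifs. The windows are Dnah9 at chr10:51363964-51364213 on the minus strand, Hydin at chr19:55146216-55146465 on the plus strand, Cfap44 at chr11:69789906-69790155 on the minus strand and Tekt2 at chr5:143907725-143907974 on the minus strand. A match is a description of these letters and not a bound site.
Dnah9: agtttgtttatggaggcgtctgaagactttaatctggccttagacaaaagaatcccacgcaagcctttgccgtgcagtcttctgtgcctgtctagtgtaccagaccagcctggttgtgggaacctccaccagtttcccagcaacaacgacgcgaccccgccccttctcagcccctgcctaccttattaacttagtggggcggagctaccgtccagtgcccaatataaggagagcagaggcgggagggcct
Hydin: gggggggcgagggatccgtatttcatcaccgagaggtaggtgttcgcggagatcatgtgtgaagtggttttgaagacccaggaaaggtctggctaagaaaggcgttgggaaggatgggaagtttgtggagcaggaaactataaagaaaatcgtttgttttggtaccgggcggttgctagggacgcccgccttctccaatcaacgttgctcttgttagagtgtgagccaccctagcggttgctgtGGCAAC
Cfap44: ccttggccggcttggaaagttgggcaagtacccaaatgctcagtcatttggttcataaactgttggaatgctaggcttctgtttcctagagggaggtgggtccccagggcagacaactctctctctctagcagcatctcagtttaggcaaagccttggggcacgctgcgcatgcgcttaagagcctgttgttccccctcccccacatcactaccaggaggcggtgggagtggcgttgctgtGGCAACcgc
Tekt2: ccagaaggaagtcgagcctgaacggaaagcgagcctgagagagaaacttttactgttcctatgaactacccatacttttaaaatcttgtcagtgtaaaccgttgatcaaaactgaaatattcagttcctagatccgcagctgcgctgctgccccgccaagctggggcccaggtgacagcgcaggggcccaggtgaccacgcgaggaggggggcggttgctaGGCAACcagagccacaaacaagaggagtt

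The groups differed in makeup over the whole library, and every comparison below is made between such groups. The share of summed FPKM in the 13 genes of the mitochondrial genome was 44.9% ± 12.4 in COPD, 21.7% ± 2.90 in WDD and 8.11% ± 1.94 in control libraries (SD, n = 5 each; exact permutation test, two-sided, p = 0.00794 for each pair, the smallest value 5 against 5 allows). COPD 1 was highest at 65.0%. All 6 neutrophil markers were called higher in COPD than in control libraries, with a summed FPKM of 11124 to 43101 in COPD, 82.8 to 439 in WDD and 43.4 to 85.1 in control libraries, so that WDD and control overlapped. Markers of alveolar type 1 cells were called lower in COPD in 6 of 6 cases, with sums of 525 to 1514 in COPD, 2489 to 3447 in WDD and 2742 to 3723 in control libraries. In COPD against control 66.4% of all genes tested were called lower and 8.23% higher. Of 4 basal cell genes in the table only Krt15 passed the filter, and their summed FPKM was 0 to 0.522 in COPD, 4.04 to 7.76 in WDD and 2.50 to 8.72 in control libraries. Of 8 testis genes only Sycp3 passed the filter, and Prm1 and Akap4 were listed at 0 in every library. The summed FPKM of the 8 was 0.237 to 1.49 in COPD, 0.755 to 1.26 in WDD and 0.871 to 1.74 in control libraries. Read totals were not analysed here. Steps between low FPKM values placed relative depth between 0.881 (COPD 4) and 1.11 (COPD 2) of control 2. Ratios far from control 2 were set aside beforehand, so a large difference in depth could not have shown. In COPD the estimate rests on only 206 (COPD 1) to 305 (COPD 3) genes per library. Of all pairs within a group, WDD 4 and WDD 5 were closest (r = 0.992). Whether any of these measures has a part in the changes of the cilium genes was not tested.

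Cilium genes were lower in COPD than in control lungs. Of the 59 members, 49 were called lower and 0 higher at an adjusted p under 0.05 (limma, Benjamini-Hochberg over 13172 genes). The background was large: 66.4% of all genes tested were called lower in this comparison and 8.23% higher. The median log2 fold change of the members was -1.16 and that of all genes -0.81, so that the members' median lay -0.35 below it. All 5 COPD libraries lay below all 5 control libraries for 38 members and above them for 0, against 52.3% and 3.99% of all genes. Of the 59, 5 members (Ccdc40, Cfap74, Dnah7, Dnah11 and Hydin) reached 1 FPKM in WDD and control libraries alone and so entered through the groups where they were higher. Among the 37 members at 1 FPKM or more in every library, 29 were called lower, with a median of -0.96. In WDD against COPD, 50 of 59 members were called higher and 0 lower, where 57.1% of all genes were called higher and 6.63% lower. All WDD libraries lay above all COPD libraries for 32 members and below them for 0, against 40.6% and 4.43% of all genes. The members' median was 0.97 and that of all genes 0.54. This comparison shares the COPD libraries with the first. Against control lungs, 11 members were called lower in WDD and 1 higher, against 31.0% and 6.35% of all genes, and 47 were not called. Groups did not overlap for 7 members lower in WDD and 1 higher, against 31.4% and 6.76% of all genes. The members' median was -0.09, against -0.23 for all genes. The counts by role and size class below are to be read against these shares of all genes.

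**Figure D1:**
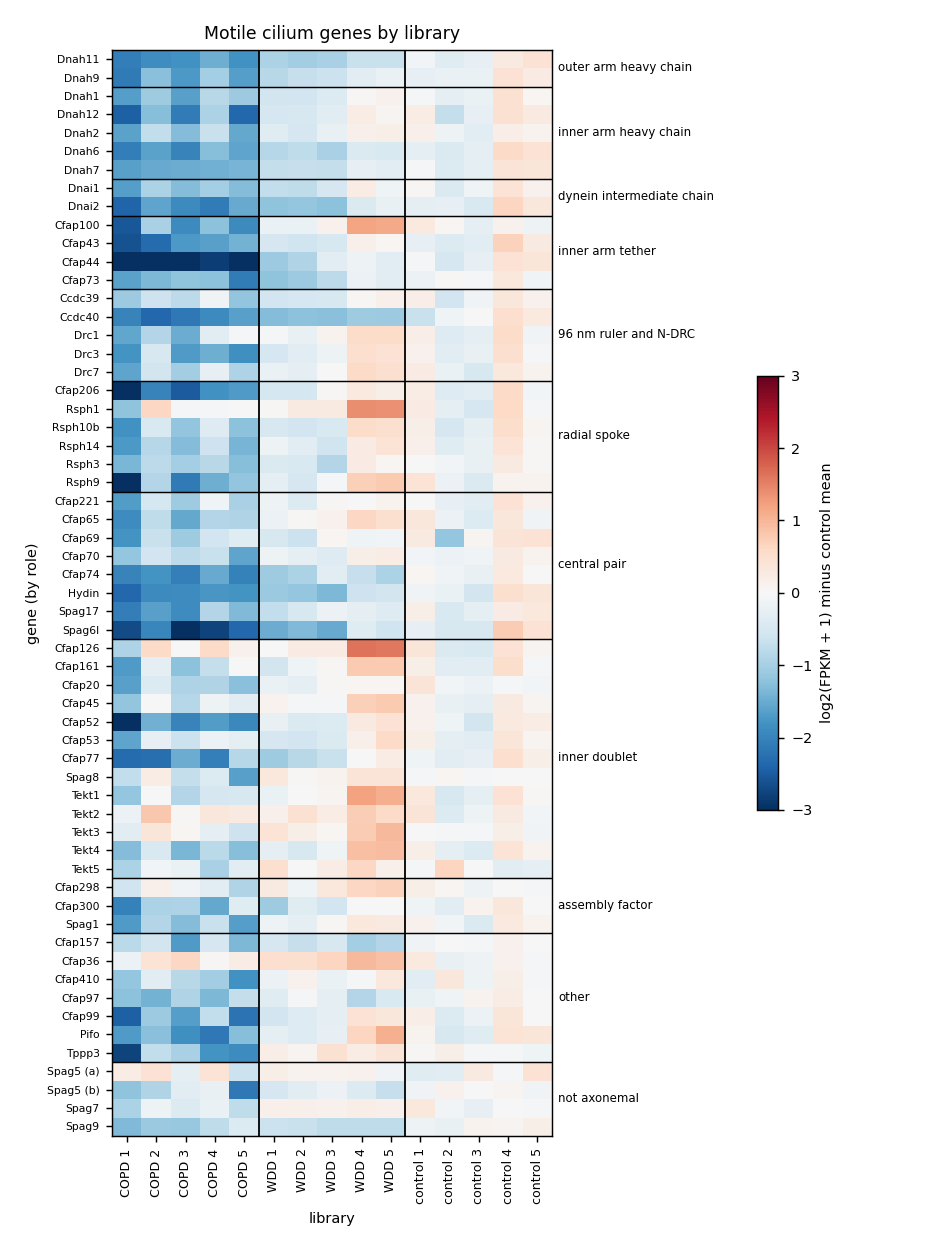
Level of the 59 members in each library, grouped by role, as log2(FPKM + 1) minus the mean of the control libraries; values past the ends of the colour scale take the end colour. COPD libraries are mostly blue, WDD 4 and WDD 5 are the reddest libraries, and Spag5 has 2 rows, (a) and (b).

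The outer arm heavy chains were all lower in COPD where they could be tested. Dnah9, a motor of the outer arm, had 0.417, 1.59, 0.869, 2.05 and 0.952 FPKM in COPD, 2.47, 2.79, 2.93, 3.96 and 4.35 in WDD and 4.16, 4.34, 4.4, 7.27 and 6.27 in control libraries. No COPD library reached the lowest WDD or control library, and WDD 5 alone overlapped the controls. Its log2 fold change was -1.55 ± 0.21 in COPD against control (SE; adjusted p = 5.30e-06, limma), 1.01 ± 0.21 in WDD against COPD (6.34e-04) and -0.54 ± 0.21 in WDD against control (0.0533, not called). Dnah11, the other outer arm motor that passed, had 0.30, 0.518, 0.552, 0.998 and 0.555 FPKM in COPD, 1.86, 1.68, 1.81, 2.45 and 2.44 in WDD and 4.17, 3.3, 3.64, 5.59 and 6.41 in control libraries. The 3 groups did not overlap at any point. Its log2 fold changes were -1.81 ± 0.17 in COPD against control (1.06e-07), 0.95 ± 0.17 in WDD against COPD (1.76e-04) and -0.86 ± 0.17 in WDD against control (9.08e-04). Dnah5, the outer arm motor whose loss is a known cause of primary ciliary dyskinesia, fell outside the filter with 2 libraries at 1 FPKM. It had 0 to 0.0820 FPKM in COPD, 0.171 to 0.293 in WDD and 0.585 to 1.31 in control libraries, groups that did not overlap, and it was not tested. Dnah8 and Dnah17, heavy chains known from the sperm tail, stayed at or below 0.552 FPKM in every library.

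All 5 inner arm heavy chains that passed were called lower in COPD against control and higher in WDD against COPD, and 2 were called lower in WDD against control. The shares of all genes were 66.4%, 57.1% and 31.0%. Dnah12 was the highest Dnah member, with 1.49, 4.67, 2.23, 6.16 and 1.69 FPKM in COPD, 8.66, 8.87, 9.78, 15.1 and 13.6 in WDD and 15.1, 7.41, 10.5, 17.8 and 15.5 in control libraries. COPD libraries lay below all others, and WDD lay within the range of the controls. The log2 fold change of Dnah12 was -1.82 ± 0.30 in COPD against control (adjusted p = 3.47e-05) and 1.62 ± 0.30 in WDD against COPD (2.15e-04). Dnah6 had 0.377, 0.887, 0.435, 1.39 and 0.94 FPKM in COPD, 2.22, 2.41, 1.94, 3.27 and 3.22 in WDD and 3.7, 3.26, 3.83, 7.64 and 6.77 in control libraries, and WDD 4 at the upper end of its group just passed control 2. Dnah7 had 0.174, 0.287, 0.295, 0.346 and 0.384 FPKM in COPD, 1.21, 1.25, 1.24, 2.1 and 1.94 in WDD and 2.51, 1.75, 1.96, 3.8 and 3.71 in control libraries, with the upper WDD libraries reaching the lower controls. For both genes COPD stood below every other library. Dnah6 and Dnah7 were called in every comparison: -1.71 ± 0.22 and -1.49 ± 0.17 in COPD against control, 1.01 ± 0.22 and 0.96 ± 0.17 in WDD against COPD, and -0.70 ± 0.22 (0.0187) and -0.53 ± 0.17 (0.022) in WDD against control. The last call was lost for Dnah6 when WDD 3, control 4 or control 5 was left out, down to -0.55, and for Dnah7 when WDD 1, WDD 2, WDD 3, control 4 or control 5 was, down to -0.43.

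Dnah1 had 1.11, 2.15, 1.15, 2.7 and 2.09 FPKM in COPD, 3.52, 3.43, 3.99, 5.81 and 6.24 in WDD and 5.49, 4.42, 4.77, 8.02 and 5.87 in control libraries. Dnah2 had 0.382, 1.51, 0.686, 1.63 and 0.446 FPKM in COPD, 2.23, 1.94, 2.6, 3.62 and 3.69 in WDD and 3.64, 2.78, 2.35, 3.81 and 3.53 in control libraries. For both, COPD lay below all other libraries while WDD and control overlapped. Their log2 fold changes were -1.25 ± 0.20 and -1.17 ± 0.21 in COPD against control and 0.98 ± 0.20 and 1.01 ± 0.21 in WDD against COPD, all called. In WDD against control they were -0.27 ± 0.20 and -0.16 ± 0.21, neither called. Over scalings, 5 of the 7 Dnah members (Dnah6, Dnah7, Dnah9, Dnah11 and Dnah12) were called lower in COPD against control under all 5 that were tried, and Dnah1 and Dnah2 were not. The share of all genes called lower under all 5 was not computed.

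**Figure D2:**
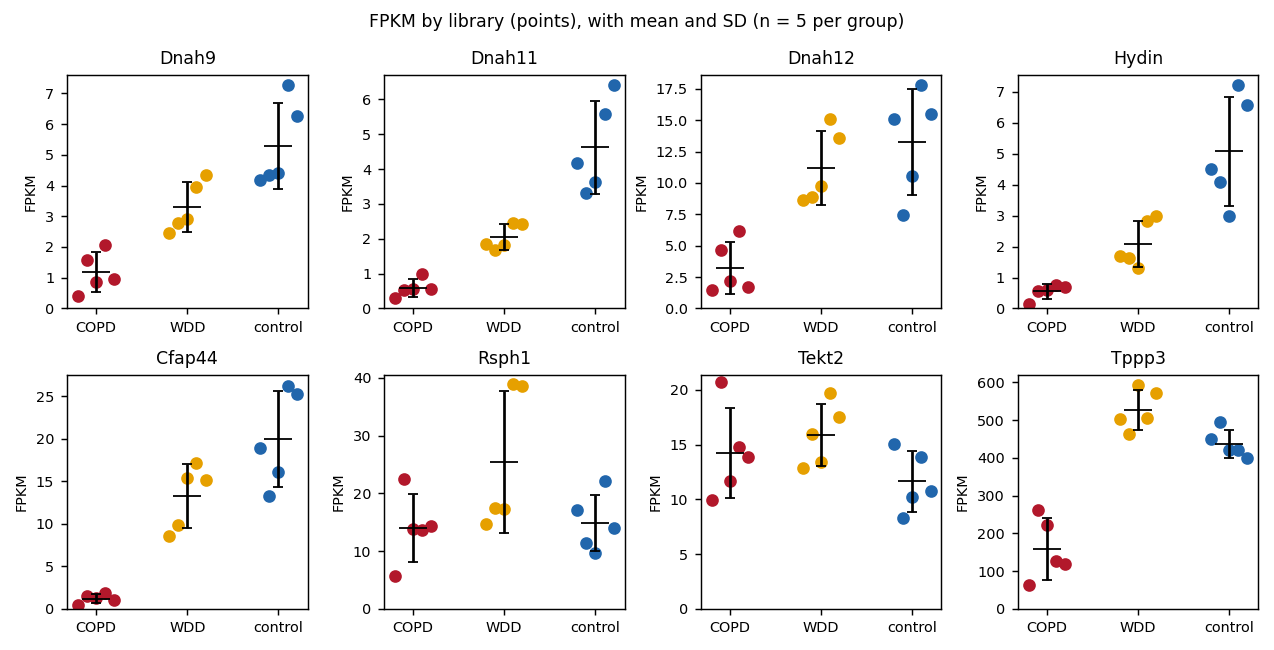
FPKM of 8 members in each library (points), with mean and SD (bars, n = 5 per group). COPD libraries lie below WDD and control for Dnah9, Dnah11, Dnah12, Hydin, Cfap44 and Tppp3, and overlap them for Rsph1 and Tekt2.

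The intermediate chains, which bind the outer arm to the doublet, changed with the heavy chains. Dnai1 had 1.65, 3.25, 2.39, 3.09 and 2.36 FPKM in COPD, 3.94, 3.9, 4.87, 8.7 and 6.56 in WDD and 7.47, 5.12, 6.53, 10.0 and 8.0 in control libraries. Dnai2 had 0.109, 0.935, 0.554, 0.362 and 1.05 FPKM in COPD, 1.52, 1.63, 1.48, 3.3 and 3.96 in WDD and 3.83, 3.88, 3.27, 8.1 and 6.31 in control libraries. COPD was lowest without overlap for both, and in WDD the libraries 4 and 5 stood above the other 3. The log2 fold changes in COPD against control were -1.24 ± 0.21 for Dnai1 and -1.90 ± 0.26 for Dnai2, and in WDD against COPD 0.86 ± 0.21 and 1.05 ± 0.26, all called. Dnai2 stayed lower in WDD than in control lungs at -0.85 ± 0.26 (0.016), a call lost without control 4 (-0.69), whereas Dnai1 at -0.38 ± 0.21 was not called. Of 14 further light, intermediate and docking chains taken from a list written by function, 12 were called lower in COPD against control and 1 higher, the light chain gene Dynlt1 at 1.18, which is also part of cytoplasmic dynein. Of all genes 66.4% were called lower and 8.23% higher. Dnal1, an outer arm light chain, stood at -1.52.

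The largest fall among the members tested was that of Cfap44, a protein that with Cfap43 tethers an inner arm to its doublet. Cfap44 had 0.411, 1.51, 1.25, 1.87 and 0.977 FPKM in COPD, 8.58, 9.85, 15.3, 17.2 and 15.1 in WDD and 18.9, 13.2, 16.1, 26.2 and 25.2 in control libraries. The gap between COPD and the other groups was wide, and WDD overlapped the lower controls. Its log2 fold change was -3.24 ± 0.24 in COPD against control (adjusted p = 1.10e-08), 2.68 ± 0.24 in WDD against COPD (2.98e-07) and -0.56 ± 0.24 in WDD against control (0.0754, not called). The partner Cfap43 stood at -1.94 ± 0.26 in COPD against control and 1.66 ± 0.26 in WDD against COPD, both called. With Cfap73 and Cfap100, all 4 genes of the inner arm tethers were called lower in COPD and higher in WDD against COPD, with medians of -1.83 in the first and 1.89 in the second comparison. The shares of all genes were 66.4% and 57.1%.

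The ruler proteins Ccdc39 and Ccdc40, which set the axonemal repeat as partners, differed in their values. Ccdc40, the larger protein, had 0.484, 0.175, 0.363, 0.587 and 0.93 FPKM in COPD, 1.43, 1.54, 1.52, 1.84 and 1.82 in WDD and 2.8, 4.47, 4.92, 7.53 and 6.41 in control libraries, and the 3 groups did not overlap. Its log2 fold change was -2.01 ± 0.19 in COPD against control (adjusted p = 1.40e-07), 0.82 ± 0.19 in WDD against COPD (0.00164) and -1.19 ± 0.19 in WDD against control (2.19e-04). Ccdc39 had 5.08, 7.44, 6.45, 11.1 and 4.71 FPKM in COPD, 7.67, 8.16, 8.33, 12.3 and 13.3 in WDD and 13.8, 7.71, 11.1, 15.4 and 13.1 in control libraries. All 3 groups of Ccdc39 overlapped, and it was called in COPD against control alone, at -0.75 ± 0.23 (0.00627), a call lost without COPD 1 and COPD 5 (-0.50) and a sign that turned to 0.08 under median-of-ratios scaling. The difference between the genes was not tested. Drc1, Drc3 and Drc7 of the nexin-dynein regulatory complex were called lower in COPD, at -0.86, -1.45 and -0.87, and higher in WDD against COPD, and none was called in WDD against control.

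All 8 central pair genes that passed were called lower in COPD, with a median of -1.38, and 7 were called higher in WDD against COPD. The shares of all genes were 66.4% and 57.1%. Hydin, a very large protein of a central pair projection, had 0.152, 0.567, 0.595, 0.757 and 0.688 FPKM in COPD, 1.71, 1.62, 1.3, 2.81 and 2.98 in WDD and 4.5, 4.1, 2.99, 7.21 and 6.57 in control libraries. The groups did not overlap, although the highest WDD library came close to the lowest control. Hydin differed on the log2 scale by -1.93 ± 0.21 in COPD against control (adjusted p = 5.80e-07), 0.97 ± 0.21 in WDD against COPD (9.50e-04) and -0.96 ± 0.21 in WDD against control (0.00218). Spag6l, a central pair protein, had 1.03, 2.37, 0.664, 0.923 and 1.58 FPKM in COPD, 3.69, 4.27, 3.57, 9.23 and 7.61 in WDD and 10.0, 8.4, 8.43, 21.4 and 16.8 in control libraries. COPD lay below all others, and WDD 4 alone among its group reached the control range. The changes of Spag6l were -2.55 ± 0.29 in COPD against control (9.15e-07), 1.49 ± 0.29 in WDD against COPD (3.99e-04) and -1.06 ± 0.29 in WDD against control (0.00947). The rows named Spag6 and Spag16 were below the filter.

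Of the 6 radial spoke genes, 5 were called lower in COPD and all 6 higher in WDD against COPD, and none was called in WDD against control. Of all genes, 66.4% were called lower in COPD and 57.1% higher in WDD against COPD. Cfap206, which belongs to the base of a spoke, had 0.426, 2.07, 1.17, 2.44 and 2.77 FPKM in COPD, 7.43, 7.41, 11.6, 13.9 and 12.8 in WDD and 13.3, 8.28, 8.72, 17.3 and 10.5 in control libraries. COPD lay far below the rest, and WDD and control overlapped. Cfap206 differed by -2.22 ± 0.27 in COPD against control (1.79e-06) and 2.11 ± 0.27 in WDD against COPD (9.65e-06). Rsph1, a spoke head protein, was the spoke gene not called in COPD, with 5.66, 22.5, 13.8, 13.7 and 14.4 FPKM in COPD, 14.6, 17.4, 17.3, 38.9 and 38.7 in WDD and 17.1, 11.5, 9.7, 22.1 and 13.9 in control libraries. WDD 4 and WDD 5 stood above every other library and the rest overlapped. The fold change was -0.13 ± 0.33 in COPD against control (0.73) and 0.80 ± 0.33 in WDD against COPD (0.0465), a call lost without WDD 4 and WDD 5 (0.32) and when COPD 1, COPD 3, COPD 4, WDD 4, WDD 5, control 1, control 2 or control 5 alone was left out (0.53 to 0.82). Rsph9, another head protein, differed by -1.92 ± 0.45 in COPD against control and had its lowest value in COPD 1, 0.143 FPKM, where the other COPD libraries held 3.13 to 8.78.

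The proteins inside the doublets were divided. Of 13 genes, 7 were called lower in COPD, where 66.4% of all genes were, and 6 were not called. Their median log2 fold change was -0.60, above the median of all genes. In WDD against COPD 10 were called higher, where 57.1% of all genes were. Cfap52 was at the low end, with 0.216, 2.77, 1.54, 2.2 and 1.69 FPKM in COPD, 7.72, 6.57, 6.69, 11.4 and 12.8 in WDD and 10.3, 8.38, 5.99, 11.6 and 11.0 in control libraries. Its COPD libraries lay below all others, and the fold change was -2.02 ± 0.27 (5.38e-06) in COPD against control and 1.95 ± 0.27 (2.26e-05) in WDD against COPD. Cfap126, known in mouse for the positioning of basal bodies, had 13.9, 40.8, 27.5, 40.7 and 29.9 FPKM in COPD, 27.4, 32.5, 32.1, 85.4 and 82.8 in WDD and 35.2, 19.9, 19.4, 37.0 and 28.7 in control libraries. WDD 4 and WDD 5 stood apart from all others, and no comparison was called (0.08 ± 0.35 in COPD against control, 0.847). Tekt3, a tektin filament protein, had 2.04, 3.87, 2.94, 2.11 and 1.46 FPKM in COPD, 4.08, 3.33, 2.96, 5.5 and 6.5 in WDD and 2.81, 2.74, 2.72, 3.31 and 2.52 in control libraries. Its groups overlapped, and it was called only in WDD against COPD, at 0.65 ± 0.20 (0.00966), a call lost without WDD 4 and WDD 5 (0.39) or without COPD 1 and COPD 5 (0.44). The other tektins ranged in COPD against control between -1.04 for Tekt4 and 0.26 for Tekt2, and Tekt4 and Tekt5 were called.

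The calls of these weak changes depend on the scaling, and so does the sign of some, such as Tekt3. Median-of-ratios scaling sets the median of all genes at -0.05 in place of -0.81. With it, Tekt2 was called higher in COPD against control at 1.12 (adjusted p = 5.59e-05), and so were Cfap126 at 0.98 (0.0185) and Tekt3 at 0.50 (0.0261). On that scale 28 of the 59 members were called lower and 6 higher in COPD against control, against 32.3% and 30.2% of all genes. Likewise 27 were called higher and 0 lower in WDD against COPD, against 23.3% and 21.4%, and in WDD against control 4 lower and 7 higher, against 16.9% and 15.9%. Over the 5 scalings, 38 of the 59 members had a negative fold change under all, 20 were called lower under all, and 4 (Cfap298, Spag7, Tekt3 and Tekt5) were called in opposite directions. Between WDD and COPD, 51 were positive and 15 called higher under all 5. In WDD against control, Ccdc40, Dnah11 and Hydin were called lower under all 5 and none higher. The shares of all genes that hold under all 5 scalings were not computed, so these counts do not set the members apart.

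Outside the axoneme proper, Tppp3, a tubulin-binding protein abundant in ciliated cells, was the most highly expressed member and held 22.1% to 48.5% of the summed FPKM of the members. It had 62.6, 262, 223, 126 and 118 FPKM in COPD, 503, 463, 593, 505 and 571 in WDD and 449, 494, 419, 420 and 399 in control libraries. COPD lay below all others, COPD 1 lowest, and WDD and control overlapped. Its log2 fold change was -1.63 ± 0.28 (6.21e-05) in COPD against control, 1.90 ± 0.28 (3.33e-05) in WDD against COPD and 0.27 ± 0.28 (0.483, not called) in WDD against control. Pifo, known from mouse as a protein of the ciliary base, had 0.789, 1.45, 0.626, 0.319 and 1.42 FPKM in COPD, 3.74, 3.43, 3.91, 8.05 and 11.3 in WDD and 5.22, 3.15, 3.51, 6.73 and 6.47 in control libraries. COPD was again lowest without overlap, and its fold change was -1.64 ± 0.29 (8.05e-05) in COPD against control and 1.79 ± 0.29 (7.46e-05) in WDD against COPD. Cfap36, which binds the small GTPase Arl3, was the 1 member called higher in WDD than in control lungs, at 0.70 ± 0.16 (0.00295), and all WDD libraries lay above all controls. The arm assembly factors Spag1 and Cfap300 were called lower in COPD, at -1.24 and -1.16, and Cfap298 at -0.35 was not.

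The name rule also takes in genes that are not axonemal. Spag5 is a mitotic spindle protein and Spag9 a scaffold for JNK signalling. Spag5 has 2 rows in the table, and reads may have been split between them. The lower row had 1.16, 1.47, 0.521, 1.47 and 0.185 FPKM in COPD, 1.09, 0.987, 0.971, 1.01 and 0.711 in WDD and 0.441, 0.483, 1.22, 0.786 and 1.51 in control libraries. It reached 1 FPKM in 7 libraries, the fewest of any member that passed, its groups overlapped, and it was called in no comparison (0.03 ± 0.21 in COPD against control, 0.899). Of the 4 such rows, 3 were called lower in COPD and 1 higher in WDD against COPD. Without them, 46 of 55 members were called lower in COPD against control and 49 of 55 higher in WDD against COPD. Mcidas, the switch for multiciliated cell fate, was below the filter, with 0, 0.0904, 0, 0 and 0 FPKM in COPD, 0.0318, 0, 0.0946, 0.0944 and 0.0673 in WDD and 0.0332, 0.0334, 0.209, 0.234 and 0.243 in control libraries. The 14 rows below the filter reached at most 1.31 FPKM in any library, and 4 of them (Cfap58, Spag4, Spag11a and Spag11bl) are listed at 0 throughout.

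The long heavy chains and the short members were then set side by side. Protein lengths were not used here, so members were sorted by general knowledge of their size into 7 Dnah chains, 11 other proteins above about 1000 residues, 20 of middle size and 21 of at most about 500. This was done with the values known, and the classes are a description without a test. The other large class holds both Spag5 rows and Spag9, and the short class Spag7, which are not axonemal. The ratio of mean FPKM in COPD to control had a median of 0.223 in Dnah, 0.211 in other large, 0.379 in middle and 0.569 in short members, against 0.524 in all genes. All 7 Dnah chains were called lower, as were 10 of 11 other large, 18 of 20 middle and 14 of 21 short members. The share of all genes was 66.4%. Dnah7 and Dnah11, and Ccdc40, Cfap74 and Hydin among other large members, reached 1 FPKM in WDD and control libraries alone. Dnah2, Dnah6, Dnah9, Spag17, the middle members Dnai2 and Cfap221 and the short members Cfap77, Pifo and Rsph14 reached it in 11 or 12 libraries. Most of their COPD libraries lay below it. The filter thus let in members low in COPD in every class. Without Dnah7 and Dnah11 the ratios ran between 0.16 (Dnah6) and 0.322 (Dnah1) in Dnah. In other large members without Ccdc40, Cfap74 and Hydin they ran between 0.0605 (Cfap44) and 1.08 (the lower Spag5 row). On the log2(FPKM + 1) scale the medians were -1.56 in Dnah, -1.56 in other large, -1.09 in middle and -0.78 in short members. Relative to the median of all genes, Dnah stood at -0.74 and the short members at 0.03. The Dnah chains thus lay below the short members by -0.77, a gap that was also -0.71 without COPD 1 and COPD 5. It was not taken without Dnah7 and Dnah11.

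Genes of general function differed by size as well. Hand lists of long and short proteins made by all cells gave a median COPD to control ratio of 0.266 for 37 long and 1.58 for 34 short rows. Dync1h1, the heavy chain of cytoplasmic dynein and akin to Dnah in size, averaged 0.778 ± 0.285 FPKM in COPD, 3.16 ± 1.06 in WDD and 12.5 ± 4.02 in control libraries (SD, n = 5 each). Its ratio of COPD to control was 0.0622, whereas those of the 7 Dnah chains ran between 0.108 and 0.322. Dync2h1, the heavy chain of the motor for transport back along the cilium, averaged 0.362 ± 0.035 FPKM in COPD, 1.57 ± 0.151 in WDD and 2.82 ± 0.578 in control libraries, a COPD to control ratio of 0.128. Called higher in COPD were 0 of 21 short members and 16 of 34 short ubiquitous rows, where 8.23% of all genes were. The count of the short members lay near that share and depends on the scaling. Under median-of-ratios scaling the short members Cfap36, Cfap126, Cfap298, Spag7, Tekt2 and Tekt3 were called higher. The difference between the cilium genes and these lists was not tested.

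**Figure D3:**
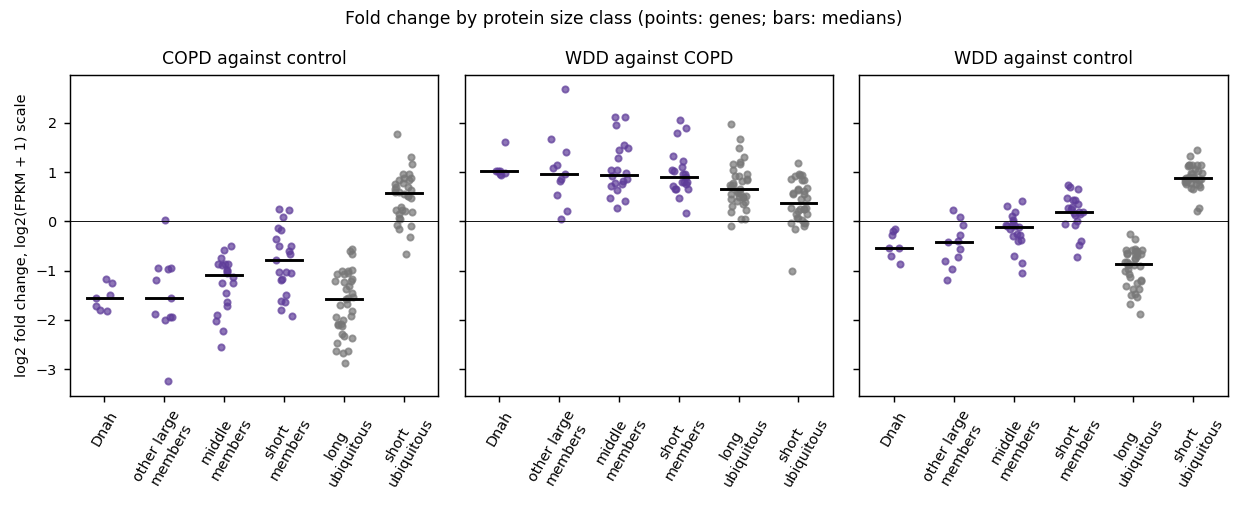
Log2 fold change of single genes (points) with the median of each class (bars), for members by protein size (purple) and hand lists of ubiquitous genes (grey). Long classes lie lower than short ones in COPD against control and in WDD against control, and the member classes have nearly one level in WDD against COPD.

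In WDD against COPD the size classes moved almost alike on the log2(FPKM + 1) scale. The medians were 1.01 in Dnah, 0.97 in other large, 0.95 in middle and 0.90 in short members. Called higher were 7 of 7 Dnah, 8 of 11 other large, 16 of 20 middle and 19 of 21 short members. The share of all genes was 57.1%. The other large members not called were both Spag5 rows and Spag9, which are not axonemal. Dnah7, Dnah11, Ccdc40, Cfap74 and Hydin, let in by WDD and control libraries alone, are among those called. Since many Dnah values in COPD are under 1 FPKM, this scale understates their change, and the ratios of means were 3.24 in Dnah and 2.05 in short members, against 1.56 in all genes. The ratio was 1.97 in long and 1.24 in short ubiquitous genes. Without WDD 4 and WDD 5, 11 of 21 short members were called higher in place of 19, with a median of 0.65, and 7 of 7 Dnah members, with a median of 0.82. The share of all genes called higher without these libraries was not computed.

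Against control, WDD lungs kept the gap between the classes. The median log2 fold change was -0.53 in Dnah, -0.42 in other large, -0.11 in middle and 0.19 in short members. Of the Dnah chains 3 were called lower (Dnah6, Dnah7 and Dnah11), of the short members 1 lower (Cfap73) and 1 higher (Cfap36). Of all genes 31.0% were called lower and 6.35% higher. The ratio of mean FPKM was 0.624 in Dnah and 1.21 in short members, and 0.514 in long and 1.87 in short ubiquitous genes. Of the 37 long ubiquitous genes 34 were called lower and of the 34 short rows 31 higher. Dync1h1 had a ratio of 0.253.

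Per library, the median log2(FPKM + 1) of the Dnah chains minus that of the short members was -1.86, -1.97, -1.80, -1.56 and -2.05 in COPD, -1.79, -1.74, -1.78, -2.16 and -1.98 in WDD and -1.42, -1.38, -1.15, -0.84 and -0.70 in control libraries. The Dnah median includes Dnah7 and Dnah11, which passed the filter through WDD and control libraries alone, and it was not taken without them. On this measure COPD and WDD libraries overlapped each other, and all 10 lay below all controls. The same measure on ubiquitous genes averaged -3.94 ± 0.61 in COPD, -3.34 ± 0.28 in WDD and -1.52 ± 0.30 in control libraries (SD, n = 5 each). The mitochondrial share, in contrast, was lower in WDD than in COPD in every library.

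**Figure D4:**
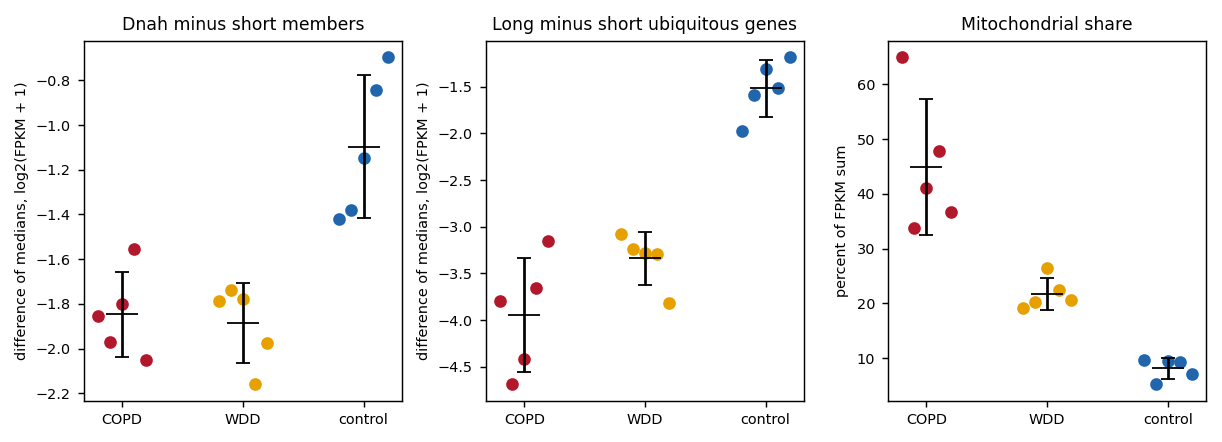
Values per library (points) with mean and SD (bars, n = 5 per group): Dnah minus short members and long minus short ubiquitous genes, both as differences of medians on the log2(FPKM + 1) scale, and the mitochondrial share of the FPKM sum. In both length measures all COPD and WDD libraries lie below all controls. Dnah7 and Dnah11, which are in the Dnah median, passed the filter through WDD and control libraries alone.

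Other genes of the ciliated cell were counted from lists written by function, to be read against the shares of all genes given above: 66.4% lower in COPD against control, 57.1% higher in WDD against COPD, and 31.0% lower and 6.35% higher in WDD against control. Of 14 ciliated cell markers outside the name rule, 13 were called lower in COPD against control and 14 higher in WDD against COPD, and 0 were called in WDD against control. The median was -1.29 in the first of these comparisons, 1.27 in the second and -0.01 in the third. Cdhr3, a ciliated cell cadherin, stood at -2.25 in COPD against control, Enkur, an axonemal protein, at -1.82 and Ak7, an axonemal adenylate kinase, at -1.74. Of 13 dynein arm assembly factors, 11 were called lower in COPD and 11 higher in WDD against COPD, and Ruvbl1 and Ruvbl2, chaperones with wider roles, were called in neither. Of 23 genes of intraflagellar transport, the conveyor that builds cilia, 19 were called lower in COPD (Wdr19 at -2.09, Traf3ip1 at -2.05 and Ift88 at -1.85) and 20 higher in WDD against COPD, with medians of -1.31 and 0.95. In WDD against control 8 were called lower and 2 higher, with a median of -0.29, near the share and the median of all genes. Primary cilia of other cells use these transport genes too. Of 12 regulators of multiciliogenesis, 10 were called lower in COPD (those of lowest p were Myb at -2.39, Ccna1 at -2.19, Rfx2 at -1.76 and Tp73 at -1.23), 8 higher in WDD against COPD and 4 lower in WDD against control. The medians of these regulators, -0.78, 0.61 and -0.30 in the same comparisons, lay near those of all genes, -0.81, 0.54 and -0.23, and the first was 0.15 after quantile normalisation. Some genes stand on more than one list.

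Within the WDD group, WDD 4 and WDD 5 were higher than the other libraries for most members. Both exceeded all of WDD 1 to 3 for 45 of 59 members (76.3%), as they did for 18.4% of all genes tested. The summed FPKM of the members was 1441 and 1495 in these libraries, against 1027 to 1222 in the other WDD libraries. Club cell markers moved with them, with sums of 37106 and 38665 against 17093 to 22099, and so did the ciliated markers outside the rule, with 615 and 646 against 419 to 442. Neutrophil markers did too, with 369 and 439 against 82.8 to 90.9. The labels give no difference between these libraries, and the part of these markers in the result was not tested. Without WDD 4 and WDD 5, 38 members were called higher in WDD against COPD in place of 50. The share of all genes called higher without these libraries was not computed, so the drop is not set against that of other genes. Within COPD, COPD 1 was the lowest of its group for 41 of 59 members (69.5%), as it was for 38.4% of all genes, and it also had the highest mitochondrial share. Club cell sums in COPD were 2064 in COPD 1 and 11144 to 15284 in the other libraries, against 10960 to 17155 in control libraries. Most of each sum was Scgb1a1, and other club markers went both ways. Mean FPKM in COPD and control was 1.03 and 50.2 for Cyp2f4 and 57.5 and 263 for Scgb3a2. It was 423 and 20.6 for Hp and 2.82 and 0.394 for Bpifa1. Of 6 club cell markers tested in COPD against control, 2 were called higher and 2 lower.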

How the data were processed

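The 15 RNA-seq libraries of rat lung fall into 3 groups of 5. TRIzol was used to extract the total RNA and the NEBNext Ultra RNA kit to prepare the libraries, per the labels' protocols. Per the submitters' processing notes, cutadapt, HISAT2, StringTie and the build Rnor_6.0 were used, without versions. Neither strand use nor the annotation release is given in the sources used here. The authors deposited FPKM. Depth is known only as relative depth, read from the steps between low FPKM values over a limited range of ratios. No counting intervals are therefore given.

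Values were tested as log2(FPKM + 1) for the 13172 genes with at least 1 FPKM in at least 5 libraries. Groups were fitted over all 15 libraries (limma 3.58.1 under R 4.3.3, moderated with a mean trend), two-sided, with Benjamini-Hochberg adjustment over all genes tested and calls at an adjusted p under 0.05. A fold change on this scale understates the change of low genes. The fit was tested on simulated data. Library makeup was compared by exact permutation tests. Python 3.11.15 with numpy 2.4.6, pandas 2.3.3, scipy 1.17.1 and matplotlib 3.10.9 was used for the rest.

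The members and the lists were chosen with earlier results of these data known. Protein lengths were planned as the basis of the size classes and were not used here; classes were sorted by hand instead. Values per library are given for the Dnah members that passed, Dnai1, Dnai2, Ccdc39, Ccdc40, Hydin, Tppp3, Pifo, Mcidas and the 4 members with the largest and the 4 with the smallest absolute change in COPD against control; Tekt2 and Cfap36 were added after their values were seen. Promoters come from RefSeq (GRCr8), a build other than that of the files, and were matched by name. Libraries that share a replicate number were not treated as pairs, since the labels do not say that a number pairs rats. Their deviations from the group means were correlated above 0.1 in 1 of 15 cases, which cannot exclude pairing. Alternatives covered the pseudocount, filter, scaling, variance model, replicate block and libraries left out.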

Additional observations from a re-analysis of the deposited data

Results flagged for a closer look

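Of 84 groups of 5 libraries examined for a library far from the rest of its group, 2 were flagged, and chance flags about 1 group in 20. Mcidas had 0.0904 FPKM in COPD 2 and 0 in the other COPD libraries, a gap that spans the whole range of a group near 0. The difference between long and short ubiquitous genes was -3.82 in WDD 5, below the other WDD libraries at -3.08 to -3.29.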

How the results depend on the processing

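In COPD against control, 49 were called lower; the count was 30 at a mean FPKM of at least 5 (37 members tested), 28 with median-of-ratios scaling and 22 after quantile normalisation. The count called higher was 0, and 6, 5, 2 and 1 under median-of-ratios, quantile, the FPKM sum without mitochondrial genes and library weights. In WDD against COPD, 50 were called higher; the count was 31 at the mean FPKM filter, 27 under median-of-ratios and 16 after quantile normalisation, where 1 was called lower in place of 0. In WDD against control, 11 were called lower; the count was 3 at the mean FPKM filter, 4 under median-of-ratios, 4 under quantile, 19 with library weights and 24 under the FPKM sum of all genes. The count called higher was 1, and 7, 10, 7, 6, 0 and 3 under median-of-ratios, quantile, library weights, only the 2 groups compared, the FPKM sum of all genes and without COPD 1 and COPD 5. The cause was not tested.

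The Dnah minus short gap in COPD against control was -0.77, and -1.26, -1.12, -1.17 and -1.06 with a pseudocount of 0.1, one of 0.5, the mean FPKM filter and median-of-ratios scaling. In WDD against COPD it was 0.11, and 0.60, 0.32, 0.72 and 0.34 under the same settings. In WDD against control it was -0.72, and -0.45 at the mean FPKM filter and -0.46 with all members other than Dnah as short. Of the Dnah members only Dnah12 passed the mean FPKM filter, so each gap given there is that gene minus the short members.

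Leaving out each library in turn gave 47 to 52 lower and 0 to 0 higher in COPD against control with a gap of -0.89 to -0.70, 47 to 52 higher and 0 to 0 lower in WDD against COPD with a gap of -0.06 to 0.16, and 8 to 13 lower and 1 to 2 higher in WDD against control with a gap of -0.79 to -0.67. The count was 2 without COPD 2, without COPD 5 or without WDD 3. With the replicate number as a block, 50 members were called lower in COPD against control, 50 higher in WDD against COPD and 13 lower and 1 higher in WDD against control; the gaps were -0.77, 0.11 and -0.72. The labels do not say that a number pairs libraries.

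In COPD against control, 10 members changed sign under median-of-ratios scaling and 17 after quantile normalisation; in WDD against COPD 8 and 7; in WDD against control 12 and 20, none of them called on either scale. Those called on at least one of the scales compared were, for COPD against control under median-of-ratios, Ccdc39 (0.0827), Cfap298 (0.56), Spag7 (0.41), Spag8 (0.17), Tekt3 (0.50) and Tekt5 (0.15). After quantile normalisation they were Ccdc39 (0.15), Cfap157 (0.0188), Cfap161 (0.20), Cfap221 (0.0835), Cfap69 (0.13), Cfap70 (0.0532), Drc1 (0.0603), Drc7 (0.18), Spag7 (0.004), Spag8 (0.26), Tekt3 (0.86) and Tekt5 (0.53). For WDD against COPD they were Cfap36 (-0.16, median-of-ratios) and the lower Spag5 row (-0.56, quantile). Subtracting the median deviation of genes of like protein length, and a lower and a higher length limit for the short members, were planned and not run, since protein lengths were not used here. The FPKM sum of all genes and the pairs of libraries left out were chosen after seeing the data. Members under 1 FPKM in COPD limit the precision of their fold changes.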
